A study of Mus musculus with 15 samples.

Results

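The loci described here are the short end of the small RNA population of the mouse testis. They are genomic intervals outside annotated repeats that span 23 nt or less, and they were taken from the 15 deposited count tables by length and repeat label alone. They number 1310305 of the 8128951 loci in the tables, or 16.1%. All libraries came from testes of C57Bl/6 males aged 8 weeks and fall into 5 groups of 3. RNA treated with CMC, a carbodiimide that binds pseudouridine (Ψ), was set against mock-treated RNA. RNA pulled down with an antibody to Ψ (Ψ-IP) was set against its input and against the flow-through that the antibody left behind. The CMC and mock libraries (the CMC set) and the other 9 libraries (the IP set) were made with different kits, so a difference between the sets cannot be told apart from the kit. The tables of the CMC set hold loci of 14 to 33 nt and those of the IP set loci of 15 to 44 nt, and lengths above 33 nt held 1.21% to 2.48% of the counts of the IP libraries. The study speaks of biological replicates in general terms, without saying for these libraries that they came from separate mice, so p-values here measure the spread between libraries, which may be technical.

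piRNAs are small RNAs of germ cells that are loaded into PIWI proteins and mostly begin with U. In the adult testis most derive from long single-stranded precursors transcribed from a limited number of clusters. A PIWI protein can cut a paired RNA opposite nucleotides 10 and 11 of its guide, and the product with the new 5′ end can be made into a further piRNA. Loci shorter than the usual piRNA length can be trimmed or truncated piRNAs, pieces left by cutting, microRNAs or fragments of other transcripts. CMC bound to Ψ blocks reverse transcriptase. In this assay adapters sit on the RNA before cDNA is made, so a cDNA that stops early lacks one adapter and gives no read, and the readout for Ψ is loss of reads.

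The short loci are many and mostly rare. Of all members, 654816 (49.97%) were seen as a single count over the 15 libraries, 239150 occurred in both sets, 768930 in the CMC set only and 302225 in the IP set only. Library totals ran from 11575705 to 58399368 counts, and levels are given below as CPM, the count of a locus scaled to its library's total. More than 20 counts, the minimum for a test, were reached by 15909 members in the IP set, which hold 43.3% of its member counts, and by 61432 in the CMC set, which hold 75.9%. Members inside 647 piRNA cluster intervals held 99.97% of the member counts, so RNAs that mark the cell types of the testis were not measured. In whole tissue, fewer cells of a type and less RNA per cell cannot be told apart.

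Sequences show how the short loci sit among longer ones. No genome was at hand, so they were read from GENCODE vM21 transcripts (GRCm38, the mm10 build). The member with the highest mean level in mock was a 21-nt locus at chr17:27356011-27356031 on the plus strand, in an exon of the lincRNA Gm49794. It is shown as the capitals in the 26-nt locus chr17:27356011-27356036 with the same 5′ end:
Gm49794 locus: TGAACTGGACCAGGAGGAAGAggggc
The next set shows another arrangement, in which a 19-nt locus stops where another locus starts. The 3 sets were the most abundant in input among 19-nt loci with all 3 sequences. Each gives the 19-nt locus with its last base in capitals, the same-strand locus that starts at the next base, and the opposite-strand locus across the junction. The first 10 bases of the last pair are in capitals, and these are reverse complements of each other.
4933440M02Rik 19 nt: attggatctggtctctacC
4933440M02Rik same strand: TGGTACGGACtgagaaccacaggagga
4933440M02Rik opposite strand: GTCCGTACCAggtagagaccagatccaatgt
Mif 19 nt: acgtagtgttctgtgtttA
Mif same strand: TCCACCGGTAgcgatgcccaccttccagcc
Mif opposite strand: TACCGGTGGAtaaacacagaacactacgtg
Gm48465 19 nt: cttccgggttctagagtaA
Gm48465 same strand: CATCCAAGCAggtccatctagttt
Gm48465 opposite strand: TGCTTGGATGttactctagaacccggaagt
The 19-nt loci lie at chr7:125330674-125330692 on the plus strand, antisense to an exon of the lincRNA 4933440M02Rik, at chr10:75859412-75859430 on the minus strand, in an untranslated exon part of Mif, which encodes a cytokine, and at chr10:86603033-86603051 on the plus strand, in an exon of the processed pseudogene Gm48465. The same-strand Mif locus was rare, with 0 to 8 counts in every library. The opposite-strand one had 112, 173 and 110 counts in mock, but 15, 4 and 13 in input and 2, 1 and 0 in Ψ-IP.

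The share of counts in short loci was lowest after Ψ-IP. It was 1.78%, 1.55% and 1.91% in input, 1.29%, 1.16% and 1.06% in Ψ-IP, and 1.64%, 1.74% and 1.53% in flow-through. No Ψ-IP library reached any input or flow-through library over all loci. With only loci above 20 counts, Ψ-IP replicate 1 (0.670%) passed input replicate 2 (0.668%), and the difference from input was -0.135 percentage points (exact permutation p = 0.2), while all Ψ-IP values stayed below flow-through. Over all loci the mean fell from 1.75% ± 0.183 in input to 1.17% ± 0.113 in Ψ-IP (SD, n = 3), a ratio of 0.669, with a two-sided exact permutation p of 0.1, the smallest that 3 against 3 can give. Against flow-through, at 1.64% ± 0.106, the ratio was 0.713 (exact permutation p = 0.1). Flow-through and input overlapped (difference of -0.108 percentage points, exact permutation p = 0.4), and with only loci above 20 counts the difference was 0.140 percentage points.

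The share of short loci overlapped between CMC-treated and mock libraries. It was 3.87%, 4.22% and 5.03% in mock and 3.99%, 4.50% and 5.96% in CMC-treated libraries. The unpaired difference was 0.439 percentage points (exact permutation p = 0.6). Each CMC-treated library lay above the mock library of the same number, also at 21, 22 and 23 nt, and the paired exact sign-flip permutation test over all lengths gave p = 0.25, the smallest that 3 pairs allow. CMC replicate 3 held the highest share, and without it the difference was -0.131.

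By length, the IP set had a peak at 19 nt that Ψ-IP lost in large part. The 19-nt loci held 0.426%, 0.335% and 0.457% of the counts in input, 0.204%, 0.185% and 0.162% in Ψ-IP, and 0.227%, 0.252% and 0.220% in flow-through. The Ψ-IP values lay below all input values and all flow-through values, with ratios of 0.453 to input and 0.789 to flow-through. Flow-through too lay below input in every library, with a ratio of 0.575. The gel cut was 17 to 40 nt per the labels but 20 to 30 nt per the Ψ-IP methods, so these loci lie near the edge of the one range and outside the other, and the part of the cut in their levels was not tested. At 16 nt the ratio of Ψ-IP to input was 0.321 (0.0140% ± 0.0022 against 0.0436% ± 0.0097). The ratio then rose with length, from 0.562 at 20 nt to 0.692, 0.808 and 0.868 at 21, 22 and 23 nt, and only at 23 nt did the groups overlap. All lengths below that gave an exact permutation p of 0.1, the smallest possible, or 0.1125 when adjusted over the 9 lengths. A lower share was not particular to short loci. Outside repeats, every Ψ-IP library also lay below every input library at 26 to 29 nt, and above at 30 to 32 nt. At 26 nt the shares were 4.19%, 4.09% and 3.90% in Ψ-IP against 4.36%, 4.34% and 4.53% in input. Mock and CMC-treated libraries also had more 19-nt than 18-nt or 20-nt counts (0.595% ± 0.090 and 0.632% ± 0.18), and they overlapped at every length from 14 to 23 nt.

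**Figure D1:**
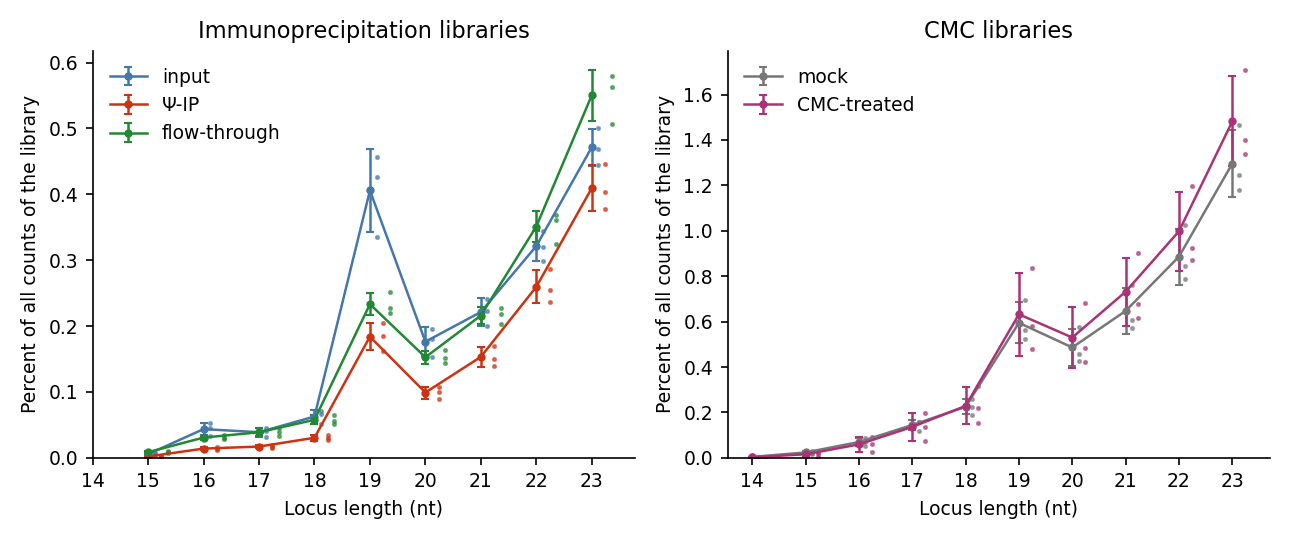
Percent of all counts of a library (y axis) in loci of each length in nt (x axis), for the IP set (left) and the CMC set (right); lines and bars are means and SD over 3 libraries, small points the libraries. Input stands above the Ψ-IP and flow-through groups at 19 nt, at 0.406% against 0.184% and 0.233%, while mock and CMC-treated libraries overlap throughout.

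The 20 to 23-nt loci and the 19-nt loci differed in where they lie. Positions were compared with 1508188 reference loci of 24 to 33 nt that had at least 10 counts over all libraries. Loci of 20 to 23 nt mostly shared their 5′ end with a longer locus of the same strand, as the Gm49794 locus does. That held for 86.2%, 86.7% and 86.6% of their counts in input and for 95.0%, 95.3% and 95.4% in mock. Of the 19-nt counts only 28.0%, 28.9% and 28.5% in input, and 57.5%, 59.1% and 59.4% in mock, had such a 5′ end.

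For part of the 19-nt counts the 3′ end faced nucleotide 11 of an opposite-strand locus, as in the sets printed above, which were chosen to have it. This arrangement was noticed after the values were seen and is given as a description. It held for 49.6%, 49.0% and 49.1% of 19-nt counts in input, against a median of 19.8% (16.4% to 24.6%) for the 10 neighbouring nucleotides. In mock it held for 25.6%, 24.7% and 24.4%, against 10.2% (8.57% to 12.4%). The same peak was present at 16 nt in input, at 33.02% against 11.5% (9.34% to 13.0%), and was small at 23 nt, at 1.86% against 1.36% (1.13% to 1.45%). The 3′ end also lay just before the 5′ end of a same-strand locus for 37.7% of 19-nt counts in input and 35.0% in mock, against 15.7% (13.0% to 16.8%) and 23.05% (21.4% to 27.8%) at the neighbouring distances. The other arrangement known for cut products, a 10-nt overlap of 5′ ends on opposite strands, stood out at 23 nt, at 9.04% of input counts against 1.42% (0.980% to 2.29%), and less at 19 nt, at 16.8% against 14.5% (12.3% to 16.4%).

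**Figure D2:**
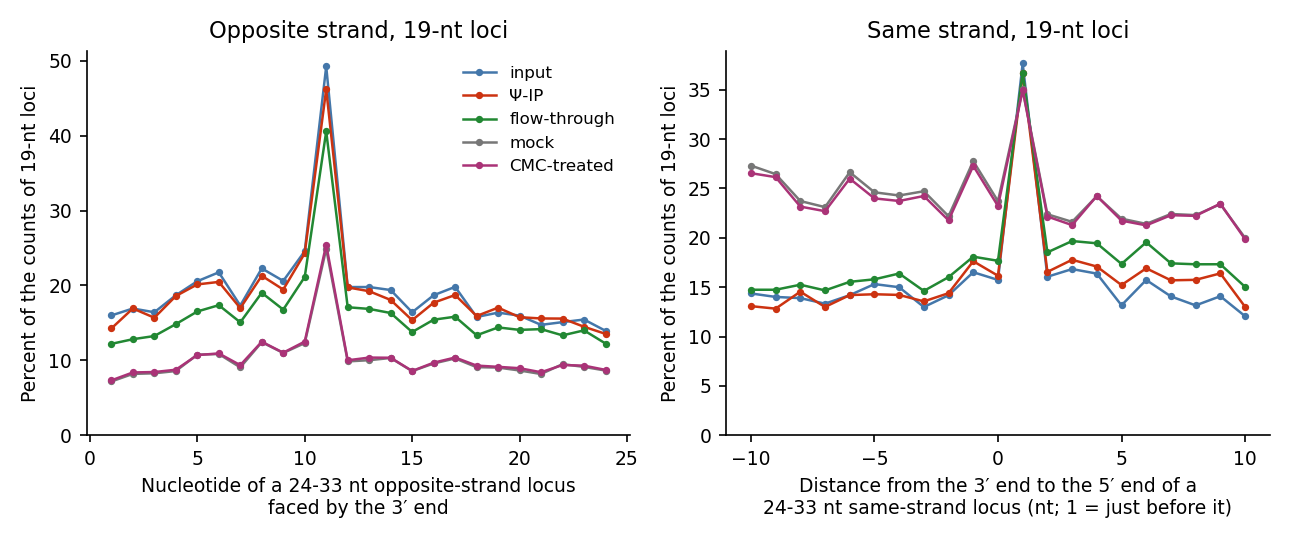
Percent of the counts of 19-nt loci (y axis, group means of 3 libraries) whose 3′ end faces each nucleotide of an opposite-strand locus of 24 to 33 nt (left, x axis) or lies at each distance in nt from the 5′ end of a same-strand one (right, x axis). All 5 groups peak at nucleotide 11, at 49.2% in input and 24.9% in mock, and at the base just before a 5′ end, at 37.7% and 35.0%.

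The fractions of the pull-down differed in these arrangements. Over all lengths, 15.9%, 14.2% and 15.8% of member counts in input faced nucleotide 11, against 10.1%, 10.2% and 9.61% in Ψ-IP and 8.14%, 8.15% and 8.04% in flow-through. The 3 groups did not overlap (exact permutation p = 0.1 for each pair, the smallest possible). A shared 5′ end moved the other way, from 70.0%, 72.4% and 70.3% in input to 76.7%, 76.9% and 78.7% in Ψ-IP (exact permutation p = 0.1), while flow-through, at 76.8%, 77.1% and 76.4%, overlapped Ψ-IP (exact permutation p = 0.5). Within the 19-nt loci the shift was small, from 49.2% ± 0.292 in input to 46.2% ± 0.352 in Ψ-IP. It turned to a rise of 2.26 points when each member was counted once. Flow-through was lower, at 40.6% ± 0.859. CMC treatment left the arrangement within the spread (24.9% ± 0.632 in mock, 25.4% ± 0.276 with CMC, exact permutation p = 0.3).

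First bases were read for the 16.3% of members above 20 counts that lie in a sequence at hand, so a composition check of all members is void, and the values hold for loci in annotated transcripts only. T came first in 86.8% to 89.6% of such loci of 20 to 23 nt. It came first in 48.9% of the 2575 loci of 19 nt. Among these it came first in 21.6% of the 974 that faced nucleotide 11 and in 65.5% of the other 1601.

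Locus by locus, Ψ-IP against input gave more falls than rises among the short loci. The edgeR quasi-likelihood test over all 686863 loci, with an adjusted p under 0.01, called 275 of the 15909 members higher and 1802 lower. That is 1.73% higher, against a background of 5.45% of all loci, and 11.3% lower, against 10.7%. The share of falls was thus near the background, and the share of rises below it. Among the 2197 members with an average of at least 10 counts 573 were lower (26.1%, background 18.9%) and 215 higher (9.79%, background 16.9%), so there the share of falls lay above the background. With more than 20 counts the median log2 fold change was -0.31 over the members and -0.10 over all loci. The falls were spread unevenly by length: 777 of 2892 loci of 19 nt were lower and 15 higher (median -1.37), and 45 of 139 loci of 16 nt were lower and none higher (median -1.66), while 391 of 5867 loci of 23 nt were lower and 136 higher (median -0.03). Within 19 nt, 554 of the 1802 loci that faced nucleotide 11 were lower (median -1.51), and 223 of the other 1090 (median -1.08). The rises were 108, 135 and 116 without input replicate 1, 2 or 3 and 287, 329 and 210 without Ψ-IP replicate 1, 2 or 3. The falls were 932, 1328 and 1011 without input replicate 1, 2 or 3 and 1713, 1806 and 1204 without Ψ-IP replicate 1, 2 or 3. Over all loci, rises were 17391, 25747 and 17324 and falls 42397, 54444 and 48783 without input replicate 1, 2 or 3. Without Ψ-IP replicate 1, 2 or 3 all loci gave 41840, 35011 and 27979 rises and 68960, 70884 and 57774 falls.

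The 5 largest falls all ended just before the 5′ end of a same-strand longer locus, and 3 of them also faced nucleotide 11. Named loci are those called with an average of at least 50 counts over the 6 libraries of a comparison and the same direction in all 9 pairs of libraries. Of 174 members with that average, 27 (15.5%) rose and 61 (35.1%) fell by this rule, and of all 55108 loci with that average 21.8% rose and 27.5% fell. A 19-nt locus at chr7:52912066-52912084 on the minus strand, outside annotated genes, had 16.2, 10.6 and 13.6 CPM in input, 0.942, 0.346 and 0.376 in Ψ-IP, and 1.86, 1.78 and 0.769 in flow-through. It was far lower in every Ψ-IP and flow-through library than in any input library (log2 fold change of Ψ-IP to input -4.81, SE 0.33, edgeR adjusted p = 5.3e-41). The Mif locus had 6.86, 5.43 and 5.88 CPM in input and 0.171, 0.259 and 0.334 in Ψ-IP (-4.57, SE 0.39, edgeR adjusted p = 9.3e-27). It too had low flow-through values, of 0.233, 1.13 and 1.75 CPM. A 19-nt locus at chr10:86603648-86603666 on the plus strand in Gm48465, with 11.3, 5.19 and 12.03 CPM in input and 0.514, 0.432 and 0.501 in Ψ-IP, changed by -4.40 (SE 0.34). The remaining falls of the first 5 were a 19-nt locus at chr15:59275913-59275931 on the minus strand (-4.78) and a 16-nt locus at chr10:86576918-86576933 on the minus strand (-4.65). For the 4 loci of 19 nt, loci of 24 to 33 nt with the same 5′ end summed to at most 3 counts in any input library, and for the 16-nt locus to 13 to 22.

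Of the 5 largest rises, 3 were 22 or 23 nt long and had a higher level still in flow-through. The first pair share a 5′ end in Gm49794, at chr17:27358261-27358282 and chr17:27358261-27358283 on the plus strand. The 22-nt one had 1.76, 1.27 and 1.54 CPM in input, 15.2, 6.39 and 7.81 in Ψ-IP, and 22.3, 20.5 and 14.7 in flow-through. Every Ψ-IP library exceeded every input library (log2 fold change 2.5, SE 0.28, edgeR adjusted p = 7.7e-16), while 8 of 9 pairs had flow-through above Ψ-IP. Longer loci with that 5′ end had 75, 74 and 78 counts in input, 292, 166 and 501 in Ψ-IP, and 1249, 1119 and 603 in flow-through. The other pair of large rises was of 19 nt, at chr13:50369300-50369318 on the minus strand, in an intron of Gm8739, and chr13:50514942-50514960 on the plus strand. Their counts were close in every library (54, 17 and 43 against 62, 19 and 50 in input, 94, 87 and 229 against 103, 90 and 226 in Ψ-IP), so their reads may map to both places and the position is uncertain.

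**Figure D3:**
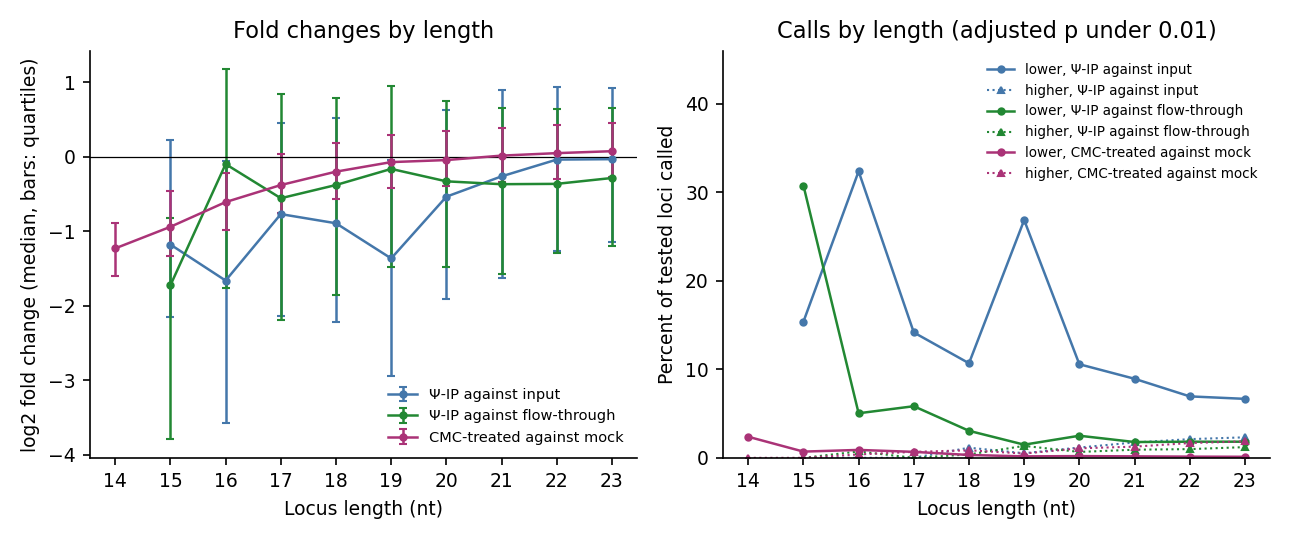
Median log2 fold change with quartiles (left) and percent of tested loci called lower (circles) or higher (triangles) at an edgeR adjusted p under 0.01 (right), by locus length in nt, for the 3 comparisons. Against input, Ψ-IP falls peak at 16 and 19 nt, with medians of -1.66 and -1.37, and the medians of 22 and 23-nt loci lie near 0.

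Against flow-through few short loci were called. Of the same 15909 members, 172 were higher in Ψ-IP (1.08%, background 9.3%) and 304 lower (1.91%, background 3.56%), with a median log2 fold change of -0.30 against -0.02 over all loci. Scaling on the members alone (TMM) shifted members and all loci alike, to medians of -0.15 and 0.13, and left the gap between them at -0.28. It called 196 members higher (1.23%, background 9.95%) and 191 lower (1.2%, background 2.3%), so the split among called members depends on the scaling, while both shares lay below the background under either scaling. The 19-nt loci did not stand out here, with 39 higher and 43 lower of 2892 (median -0.16). Of the 13 loci of 15 nt, 4 were lower (median -1.73). Rises numbered 87, 73 and 97 without Ψ-IP replicate 1, 2 or 3 and 95 without flow-through replicate 1, and falls 180, 161 and 142 without Ψ-IP replicate 1, 2 or 3. Over all loci the same fits gave 52089, 45907, 44791 and 50807 rises, and 16177, 15226 and 17674 falls. This comparison and the one with input share the Ψ-IP libraries.

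The 5 largest falls against flow-through were 1 family. They are 16, 17, 19, 20 and 22 nt long, lie on the minus strand of chromosome 15 outside annotated genes, and share a 3′ end at position 57975974. The 20-nt one, chr15:57975974-57975993, had 149, 212 and 139 counts in flow-through, 0, 3 and 1 in Ψ-IP, and 6, 0 and 3 in input. The 9 members with this 3′ end summed to 76.3 CPM ± 22.4 in flow-through, against 1.84 ± 1.42 in Ψ-IP, 1.10 ± 0.267 in input and 0.922 ± 0.082 in mock. Longer loci with the same 3′ end showed it too, at 122, 109 and 157 counts in flow-through and 5 or fewer in each other library.

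The largest rise against flow-through was a 19-nt locus at chr17:66191802-66191820 on the plus strand, outside annotated genes. It had 8.39, 7.69 and 4.30 CPM in Ψ-IP, 0.744, 1.08 and 0.769 in flow-through and 6.46, 5.61 and 7.74 in input, so Ψ-IP overlapped input and stood above flow-through (log2 fold change 3.18, SE 0.40, edgeR adjusted p = 1.0e-13). A 22-nt locus at chr10:75857477-75857498 on the plus strand had 7.19, 7.08 and 6.60 CPM in Ψ-IP, 1.81, 2.10 and 2.87 in flow-through and 4.43, 4.83 and 5.62 in input (1.88, SE 0.35, edgeR adjusted p = 2.8e-06). Its Ψ-IP values were above those of both other groups, though the difference from input was not called (0.35, edgeR adjusted p = 0.33).

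With CMC few short loci were called, and more of them higher than lower. Of 61432 members tested among 556583 loci, edgeR called 805 higher (1.31%, background 1.07%) and 114 lower (0.186%, background 0.654%). The share of rises was thus near the background, and the share of falls below it. For the falls this did not hold without CMC replicate 3 or with scaling on members, as given below. With the replicate number as a block 938 were higher (1.53%, background 1.24%) and 187 lower (0.304%, background 1.03%). The median log2 fold change was -0.01 over the members and 0.00 over all loci. The member median was -0.17 without CMC replicate 3, and 0.11 without CMC replicate 1 or without mock replicate 3. Its gap from all loci ran from -0.16 to 0.11 with 1 library left out. The median moved with length, from -1.23 at 14 nt and -0.61 at 16 nt to 0.07 at 23 nt. CMC replicate 1 had the lowest levels at the short lengths: at 16 nt the shares of all counts were 0.0251%, 0.0614% and 0.0907% with CMC and 0.0538%, 0.0853% and 0.0697% in mock. Without it the medians at 14 and 16 nt were -0.58 and -0.17, and that at 18 nt turned from -0.20 to 0.06. Without CMC replicate 3 those at 14 and 16 nt were -1.86 and -1.10, and that at 23 nt was -0.03. Rises numbered 496 without CMC replicate 3 and 521 and 373 without mock replicate 1 or 2 (4861, 4443 and 3241 over all loci). Falls numbered 53, 35 and 332 without CMC replicate 1, 2 or 3 and 46 and 42 without mock replicate 2 or 3. Over all loci these fits gave 5340, 1539 and 2599 falls, and 1265 and 2177. Without CMC replicate 3 the share of members that fell, 0.540%, thus lay above that of all 556583 loci. With scaling on members 41 members fell (0.067%) and 382 of all loci, a near equal share.

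Part of the loci that rose with CMC started a few bases inside a much more abundant RNA. This was noticed after the values were seen and is a description. Of the 805, 261 (32.4%) had a 5′ end 1 to 4 nt downstream of a 5′ end of the same strand with at least 10 times its counts over the 6 libraries, against 5.03% of all members tested. None of the 114 that fell did so. Of the 3093 members in this position 8.44% rose, by distance 7.50% at 1 nt, 11.5% at 2 nt, 8.35% at 3 nt, 5.72% at 4 nt and 1.03% at 5 nt. Of the other 58339 members 0.932% rose. The median log2 fold change in this position was 0.34, against -0.02 elsewhere. Of the members lacking such a 5′ end within 10 nt, 437 rose, so the arrangement covers only part of the rises. The 261 became 162 of 373 rises (43.4%) without mock replicate 2, 107 of 555 (19.3%) at an average of at least 10 counts, 143 of 427 (33.5%) with DESeq2 and 242 of 514 (47.1%) with scaling on members.

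The 3 largest rises were of this kind. A 22-nt locus at chr7:52909520-52909541 on the plus strand had 0, 2 and 2 counts in mock and 185, 90 and 119 with CMC (log2 fold change 6.84, SE 0.35, edgeR adjusted p = 4.0e-19). Its 5′ end lies 3 nt downstream of one with 128040, 206601 and 149595 counts in mock and 172997, 70733 and 81679 with CMC. Over reads of all lengths, its own 5′ end had 21, 38 and 29 counts in mock and 2827, 1450 and 1854 with CMC, so longer loci moved with it. A 23-nt locus at chr5:149823807-149823829 on the minus strand had 2, 10 and 1 counts in mock and 154, 110 and 164 with CMC (5.43, SE 0.32), and one at chr7:52908188-52908210 on the plus strand had 7, 7 and 10 in mock and 117, 110 and 181 with CMC (4.52, SE 0.31). No count or at most 1 was seen for these loci in any library of the IP set. The next, a 23-nt locus at chr7:52908803-52908825 on the plus strand, was well populated without CMC, at 11.5, 9.42 and 13.1 CPM, and had 61.1, 83.7 and 89.0 CPM with it (2.71, SE 0.14). Longer loci with its 5′ end had 9764, 13279 and 10702 counts in mock and 15842, 7551 and 7324 with CMC. The fifth, a 17-nt locus at chr14:44779288-44779304 on the minus strand, rose by 2.54 (SE 0.23).

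**Figure D4:**
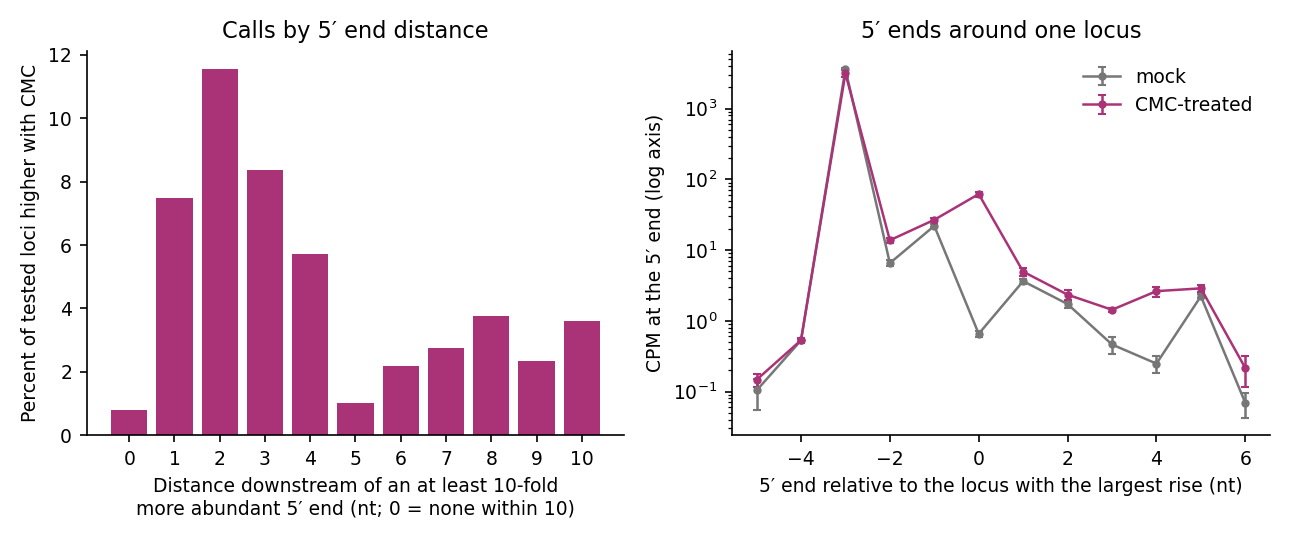
Left, percent of tested loci higher with CMC (y axis) by the distance in nt of their 5′ end downstream of a 5′ end with at least 10 times the counts (x axis; 0 means none within 10 nt). Right, mean CPM of all reads starting at each position (log y axis, bars SD, n = 3) around the 22-nt locus with the largest rise (x axis, nt from its 5′ end). The bars are highest at 1 to 4 nt, with 11.5% at 2 nt, and at position 0 CMC-treated libraries stand far above mock with 61.9 against 0.655 CPM, while the peak 3 nt upstream had 3151 and 3622 CPM.

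The 5 largest falls with CMC were loci of 16 to 18 nt. Each shared its 5′ end with a longer locus, which held for 82.5% of all 114 falls and for 92.4% of all members tested, so it does not mark the falls. A 17-nt locus at chr2:92550582-92550598 on the plus strand had 17.6, 16.3 and 14.9 CPM in mock and 4.13, 5.92 and 5.16 with CMC, without overlap (-1.77, SE 0.14, edgeR adjusted p = 1.7e-12). An 18-nt locus at chr6:127802827-127802844 on the plus strand had 7.05, 8.01 and 8.01 CPM in mock and 2.45, 3.602 and 4.06 with CMC (-1.29, SE 0.16). The others were of 17 nt at chr2:92550858-92550874 and chr7:52908225-52908241 on the plus strand and of 16 nt at chr5:101833174-101833189 on the minus strand in an untranslated exon part of Wdfy3, with log2 fold changes of -1.30, -1.23 and -1.16. Leaving out 1 library ended the call for these 3: CMC replicate 1 for the first, and CMC replicate 1 or 2 or mock replicate 2, among others, for the last pair, whose calls DESeq2 and scaling on members ended too.

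Few short loci were called in both assays. Of 8815 members tested in both, 191 (2.17%) were higher in Ψ-IP and 17 (0.193%) lower with CMC, against 7.87% and 1.09% of all 293568 loci tested in both. None of the members was both, against 0.298% of all loci (875), and with only 17 falls with CMC few could have been. Another 2 members were higher in both assays, 2 were lower in both (0.0227% each, against 0.0361% and 0.0576% of all loci), and 12 (0.136%, against 0.190%) were lower in Ψ-IP and higher with CMC.

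The most abundant members were of several kinds. The Gm49794 locus printed first had 29.6, 27.3 and 29.5 CPM in input, 38.5, 27.6 and 24.7 in Ψ-IP, 30.6, 38.6 and 29.0 in flow-through, 169, 155 and 214 in mock and 196, 179 and 222 with CMC. The groups within each set overlapped, and no comparison called it. Its end is sharp in the CMC set, where the 20 and 22-nt versions had 642 and 493 counts in mock replicate 1, against 6027 for the 21-nt version. In the IP set the neighbours were closer, with 201, 742 and 422 counts for 20, 21 and 22 nt in input replicate 1. In input the highest levels belonged to a pair of 19-nt loci at chr9:67716838-67716856 on the minus strand and chr9:67716022-67716040 on the plus strand. Their levels were near equal in every library, at 40.1, 26.2 and 48.5 against 37.5, 25.04 and 44.5 CPM in input, so their reads may map to both places. The minus-strand one had 21.5, 22.03 and 20.8 CPM in Ψ-IP and 6.33, 15.6 and 13.4 in flow-through, below input (-0.98, SE 0.21, edgeR adjusted p = 8.4e-05) and above flow-through (1.12, SE 0.28, edgeR adjusted p = 0.0010). The call against input was lost without input replicate 3 and that against flow-through without flow-through replicate 1 or with no count minimum. A 19-nt locus at chr9:67714479-67714497 on the plus strand, with its 3′ end facing nucleotide 11, fell from 25.4, 15.3 and 28.4 CPM in input to 1.97, 3.37 and 2.72 in Ψ-IP (-3.23, SE 0.26, edgeR adjusted p = 7.6e-31).

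Some abundant loci had far higher levels in 1 set than in the other. A 22-nt locus at chr4:94311090-94311111 on the minus strand, in an intron of the lincRNA Gm12648, had 17.6, 45.7 and 33.6 CPM in input and 36.0, 65.0 and 35.3 in Ψ-IP, and 3 counts in all over the 6 libraries of the CMC set. A 23-nt locus at chr9:67734461-67734483 on the plus strand had 103, 138 and 156 CPM in mock, and 1.32, 1.33 and 1.54 in input. A 23-nt locus at chr17:27318606-27318628 on the minus strand, in the lincRNA Gm49793, had 128, 152 and 171 CPM in mock and 4.99, 5.85 and 5.93 in input. Whether the kit or the RNA sets these levels cannot be told apart.

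Members on annotated microRNA hairpins made a small group, and many of them were not the mature microRNA. Members overlapped 26 RefSeq hairpins by at least 15 nt on the same strand. Those with the 5′ end of an annotated mature microRNA were 150 of 1823 and held 40.6% of the counts. Against input 77 members on hairpins were tested, of which 12 (15.6%) were lower and none higher, with 10.7% and 5.45% over all loci. Against flow-through 3 (3.90%) were higher and 4 (5.19%) lower, with 9.3% and 3.56% over all loci. Of 203 tested with CMC 12 (5.91%) were higher and none lower, with 1.07% and 0.654% over all loci. With a mature 5′ end, 4 of 29 were lower against input and none higher, 1 of 29 was higher and 2 lower against flow-through, and 2 of 55 were higher with CMC and none lower. Mature sequences of Mir26a-2, Mir7210 and Mir7217, with 3202, 19992 and 23179 member counts over the 15 libraries, follow. They are given because members share or adjoin their 5′ ends, with the seed, bases 2 to 8, in capitals:
mmu-miR-26a-5p: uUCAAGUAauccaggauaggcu
mmu-miR-7210-5p: uAACAUUGuagacaggcacaaag
mmu-miR-7217-3p: uGAGAACCcacaagcaagaaga
miR-26a is a widely expressed microRNA. The main member was a 21-nt locus at chr10:126995544-126995564 on the plus strand, 1 base inside the annotated 5′ end at position 126995543. That base is also the listed start of the cluster interval, and the tables hold no locus of this hairpin that begins at or before it, so RNAs with the annotated 5′ end were not measured. The 21-nt locus had 15.9, 10.2 and 17.9 CPM in input, 11.4, 10.6 and 6.73 in Ψ-IP and 2.19, 4.32 and 1.89 in flow-through. Ψ-IP stood above flow-through in all pairs (log2 fold change 1.99, SE 0.34, edgeR adjusted p = 1.2e-07) and was lower than input after scaling (-0.78, SE 0.23, edgeR adjusted p = 0.0059). Leaving out input replicate 1 or 3 or Ψ-IP replicate 3 ended that second call, as did DESeq2, scaling on members and both other count minimums. The CMC set held 2 to 10 counts of it in each library. The main member on Mir7210, of 21 nt at chr14:24088877-24088897 on the plus strand, begins with the annotated 5′ end. It rose from 49.9, 49.9 and 53.4 CPM in mock to 68.6, 105 and 119 with CMC (0.86, SE 0.13, edgeR adjusted p = 1.4e-05) and had at most 13 counts in any library of the IP set. Scaling on members and dropping the count minimum ended the call. On Mir7217, 9 members shared the 5′ end of miR-7217-3p, with 370, 197 and 263 counts in input. The most abundant members overlapping this hairpin instead started at position 27355734, outside the hairpin, which begins at 27355738, and had neither annotated 5′ end. The 23-nt one, at chr17:27355734-27355756, rose with CMC (0.55, SE 0.13, edgeR adjusted p = 0.0090), though not without CMC replicate 2 or 3 or mock replicate 1 or 2, and not with DESeq2, scaling on members or no count minimum. The 19-nt one was not called (-0.13). Loci of 24 to 33 nt with this 5′ end had 14044, 22864 and 15852 counts in mock.

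Summed per piRNA cluster, short loci were lower in Ψ-IP than in input in most clusters with enough counts, and the other loci of the same clusters in few. Sums over short and over all other loci were tested as separate features (edgeR, average of at least 100 counts). Against input, 92 of 116 short sums were lower and none higher, with a median log2 fold change of -0.92, where 17.0% of all 675 features were lower and 8.15% higher. Of the 559 sums over other loci 23 (4.11%) were lower and 55 (9.84%) higher, with a median of 0.04. In the 115 clusters with both sums, 92 short sums were lower and none higher, while 8 of the sums over other loci were lower and 30 higher. In 112 of these the fold change of the short sum was the lower, with a median difference of -0.89. Against flow-through 58 of 99 short sums were lower and 1 higher (median -0.43, 22.5% and 19.7% of all 654 features), and in the 98 clusters with both sums 57 short sums were lower and 1 higher, while 36 of the sums over other loci were lower and 29 higher. With CMC no short sum of 193 was called (0.0% of 826 features), 3 had an unadjusted p under 0.05 and DESeq2 called 1. With the replicate block 41 had an unadjusted p under 0.05, and none was called. The log2 fold change was above 0 for 178 of the 193 and below that of the other loci of the cluster for 20. Its median was 0.11, but -0.08 without CMC replicate 3 and 0.24 without CMC replicate 1.

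**Figure D5:**
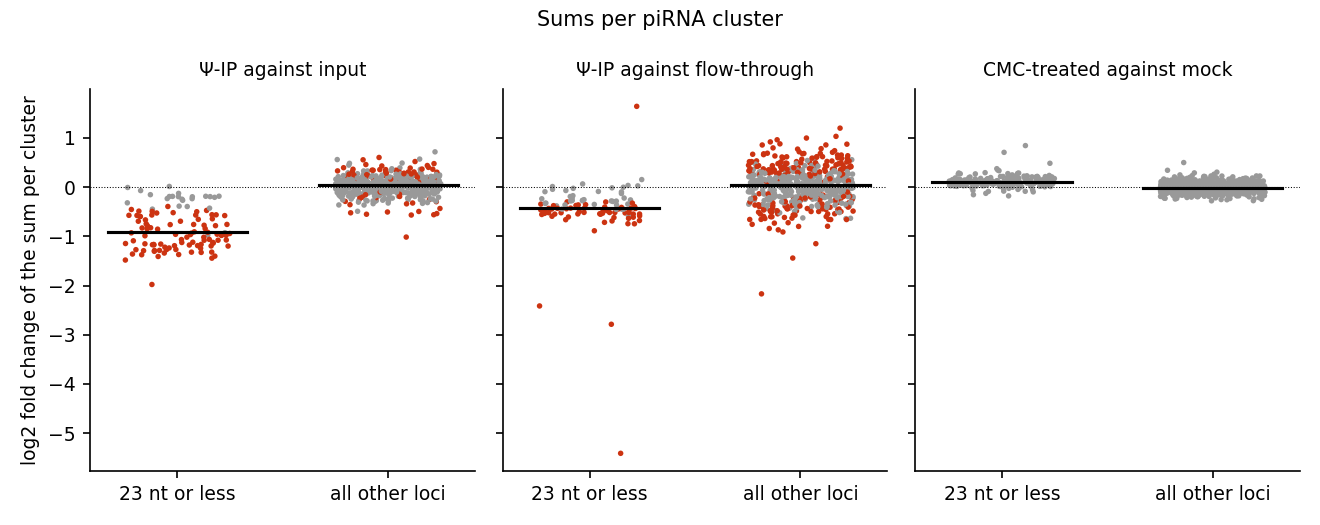
Log2 fold change of the sum of counts per piRNA cluster (y axis) for loci of 23 nt or less and for all other loci of the cluster, in the 3 comparisons; each point is a cluster, red marks an edgeR adjusted p under 0.01 and the bar is the median. Short sums lie lower than the other sums against input, with medians of -0.92 and 0.04, and close to them with CMC.

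The cluster with most short reads, chr17:27269742-27371971 with the lincRNAs Gm49793 and Gm49794, changed little against input but fell against flow-through. Its short loci had 3007, 2749 and 3213 CPM in input, 2841, 2430 and 2344 in Ψ-IP and 3905, 3903 and 3292 in flow-through, so Ψ-IP overlapped input and lay below flow-through (log2 fold change to input -0.19, edgeR adjusted p = 0.053, and to flow-through -0.51, edgeR adjusted p = 0.00020). At chr9:67687024-67773986 the short loci fell from 999, 841 and 1086 CPM in input to 653, 576 and 529 in Ψ-IP (-0.69, SE 0.09, edgeR adjusted p = 0.00028), and at chr2:92515043-92616945 from 851, 763 and 929 to 630, 585 and 533 (-0.50, SE 0.07, edgeR adjusted p = 0.00046). In both the flow-through values, of 716, 829 and 710 and of 718, 838 and 743, lay above Ψ-IP. The sums over other loci of the 3 clusters had log2 fold changes of 0.05, 0.01 and 0.05 against input, none of them called. Against flow-through the other loci of the chromosome 17 cluster fell too, by less than its short loci (-0.19, edgeR adjusted p = 7.1e-05). Those of the chromosome 9 cluster rose (0.13, edgeR adjusted p = 0.00039), and those of the chromosome 2 cluster were not called (0.07, edgeR adjusted p = 0.020). Chosen after the values were seen, the cluster with the largest fall against input, chr9:3178220-3190742, had short counts of 267, 122 and 232 in input and 21, 29 and 69 in Ψ-IP (-1.98, SE 0.23).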

How the data were processed

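Per the labels and methods, the authors trimmed reads with Cutadapt, kept 14 to 44 nt, set tRNA fragments aside, aligned with Bowtie 2 to mm10 with at most 3 mismatches and intersected with repeats and piRNA clusters with bedtools. The deposited values are whole-number counts per locus and library, with no normalization. How a read with several positions was counted is not given in the sources used here. RNA was cut from gels at 17 to 40 nt per the labels and at 20 to 30 nt per the Ψ-IP methods, and shorter members lie outside these ranges. The deposited tables hold 14 to 33 nt in the CMC set and 15 to 44 nt in the IP set.

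Each comparison was fitted over all loci with more than 20 counts in its set, with TMM scaling and the edgeR (4.0.16, R 4.3.3) quasi-likelihood test over 6 libraries. Adjusted p-values (Benjamini-Hochberg) under 0.01 were calls, and the SE is the fold change over the root of F. CPM is scaled to all deposited counts of a library, loci of other lengths included. Shares were compared by two-sided exact permutation tests (Python 3.11.15, numpy 2.4.6) over libraries. Depth limits rare loci, and differences below the spread were not detectable. Scripts were tested on simulated data. No replicate pair was a duplicate (chi-square per degree of freedom 1.27 to 5.49). Same-numbered CMC and mock libraries deviated together over loci averaging at least 50 counts (r of 0.12, 0.14 and 0.28 for the 3 pairs), less so at 10 counts (0.03, 0.05 and 0.12). The methods split each ligated sample between CMC and mock for Arabidopsis, and do not say so for mouse. DESeq2 (1.42.0), other scalings, filters, length limits and left-out libraries were alternatives. Named loci were the 5 largest rises and falls by the rule given, the 5 most abundant in input and in mock, and the 5 most abundant on hairpins. Members and lists were chosen with earlier results of these data known.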

Additional observations from a re-analysis of the deposited data

How the results depend on the processing

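Over all called changes of named loci, 447 alternatives kept the direction and side of the threshold and 44 lost the call. Over the comparisons 245 alternatives kept the direction of a share or kept a count of calls at a similar size. Another 44 moved a count of calls further, and 11 turned the direction of a share. A share could change in size and still count as kept, because no exact permutation p here can go below 0.1. Counts of called loci moved most, partly since DESeq2 gave no adjusted p to many members (39158 of 61432 had one with CMC). An average of at least 10 counts left 2197 (input), 2312 (flow-through) and 23897 (CMC) members to test. Against input, rises (275) were 119 with DESeq2, 101 with no count minimum and 139 at 22 nt or less, and falls (1802) were 573 under that average, a larger share of those tested (26.1% against 11.3%), and 743 with DESeq2. Over all loci, rises (37447) were 23144 with DESeq2 and 16728 with no count minimum. Falls over all loci (73287) were 43725 under that average and 45086 with DESeq2. Against flow-through, rises (172) were 61, 104, 64 and 101 under the average, DESeq2, no minimum and 22 nt, and falls (304) 174, 166, 142 and 197, with 191 under scaling on members. Over all loci, rises (63869) were 44667, 51530 and 44889 under the average, DESeq2 and no minimum. Falls over all loci (24481) were 23730, 19217 and 14499, with 15778 under scaling on members. With CMC, rises (805) were 427 with DESeq2, 514 with scaling on members and 504 at 22 nt, and falls (114) were 70 under the average, 39 with DESeq2 and 41 with scaling on members. Over all loci, rises (5979) were 3625 with DESeq2 and 3767 with scaling on members. Falls over all loci (3640) were 3341 under the average, 2721 with DESeq2 and 382 with scaling on members. Under that scaling 0.067% of members fell, near the share of all 556583 loci. Short sums per cluster rose with CMC in 1 with DESeq2.

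Leaving out 1 library gave 108 to 329 rises and 932 to 1806 falls against input, 73 to 148 and 142 to 290 against flow-through, and 373 to 903 and 35 to 332 with CMC. Over all loci it gave 17324 to 41840 rises and 42397 to 70884 falls against input. Against flow-through it gave 44791 to 56194 and 15226 to 22016, and with CMC 3241 to 5708 and 1265 to 5340. With it, the difference of CMC to mock ran from -0.131 to 0.853 points for the share of short loci, from -0.0648 to 0.113 for 19 nt, from -0.584 to 0.143 for a shared 5′ end and from -0.282 to 0.0101 for facing nucleotide 11.

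The replicate block, in a paired fit, gave 187 falls with CMC (0.304%, background 1.03%). In the IP set the numbers are shared but the pairs did not deviate together in every case (r from -0.03 to 0.30 against input and -0.05 to 0.18 against flow-through), and the block gave 192 rises and 1381 falls against input and 100 and 176 against flow-through. Over all 686863 loci the block gave 31945 rises and 63593 falls against input and 53309 and 19866 against flow-through.

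Some shares turned direction. Flow-through less input was 0.140 points with loci above 20 counts only. CMC less mock was -0.228 with each locus counted once. For a shared 5′ end it was 0.0526 with reference loci of at least 1 count and 0.366 with each member once. For 19-nt loci counted once, ends just before a 5′ end differed by 2.13 (Ψ-IP less input) and 0.367 (CMC less mock), and ends facing nucleotide 11 by 2.26 (Ψ-IP less input). The cause was not tested.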
